A study of Mus musculus with 8 samples.

Results

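Some genes on an expression array are read by more than 1 probe, and the probes of a gene can give different answers. The 10 genes described here, Med8, Napa, Trim12a, Masp2, Fgl1, Rbbp9, Lactb, Pex26, Tmed6 and Kbtbd11, were chosen because, for each, 1 probe separated the embryos by a large gap: they were chosen by the shifted log2 signals reported below. They were found through the RefSeq transcript given for each probe, and are 10 of the 20660 named genes on the array. They have 22 of its 55681 probes, and 21 of these were among the 33093 probes bright enough to be tested. The gap was measured on these same embryos, so the values of the probe that splits the embryos, called the splitting probe below, are a description without a test. Tests of the 10 genes are given at their other probes only. These probes read the same genes in the same embryos, so the tests are not fully independent of the choice.

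The study asked whether reduced function of the Polycomb protein EED in a male affects gene expression in his offspring. Each of the 8 arrays held RNA from 1 whole wild-type embryo, collected at E8.5 from a wild-type mother. The labels give the mouse strain and background as C57bl6/129, and a figure legend of the study gives the mothers as c57bl/6J. The fathers carried either no mutation (Eed wt/wt, 4 embryos, W1 to W4) or 1 copy of the hypomorphic Eedl7Rn5-1989SB allele (Eed hypo/wt, labelled HET, 4 embryos, H1 to H4), which lowers EED function without removing it. Embryos W1, W3, H2 and H4 were labelled female and W2, W4, H1 and H3 male. The numbers are replicate numbers only. Each father group had its arrays on 1 slide, which the other group did not share, so the father's genotype and the slide cannot be told apart. Embryos W2, W3 and W4 share the first part of their code in the labels, which do not tie embryos to sires or litters. The breeding plan of the study has fewer males of each genotype than embryos, while a figure legend gives n = 4 for each genotype. Some embryos of a group may therefore share a father. The SDs, intervals and p-values take the 4 embryos of a group as independent and measure the spread between these embryos. A limma fit that let embryos with the same first part of the code be correlated gave a correlation of 0.54 in the father comparison. There 680 of all tested probes had an unadjusted p under 0.05, against 1455 without it. In the sex comparison the correlation was 0.68, with 1988 such probes against 1084. The intervals and p-values printed below do not allow for this correlation.

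The genes belong to unlike cell processes. Med8 is a subunit of the head of Mediator, the complex that links transcription factors to RNA polymerase II, and Rbbp9 is a serine hydrolase named for binding the retinoblastoma protein. Napa (alpha-SNAP) works with NSF to take SNARE complexes apart after membranes have fused, and Tmed6 belongs to the p24 family, which carries cargo between the endoplasmic reticulum and the Golgi. Masp2 is the serine protease of the lectin pathway of complement that cleaves C4 and C2, and Fgl1 is a fibrinogen-like protein secreted by hepatocytes. Lactb is a serine protease of the mitochondrial intermembrane space and Pex26 is a membrane anchor for the ATPases that recycle the peroxisomal import receptor. Trim12a is a mouse relative of the retroviral restriction factor TRIM5, and Kbtbd11 is a kelch and BTB protein of a family that includes adaptors of cullin ubiquitin ligases.

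Signals are given as the log2 of the intensity after Agilent's background subtraction, minus the 75th percentile of the same array, so that 0 is the level of that percentile. Values of different probes are not on 1 scale, and only embryos are compared within a probe. A spot was well above background where Agilent's software marked it so, and this held for 32158 to 39530 probes on the arrays of Eed wt/wt fathers and 29203 to 38878 on those of Eed hypo/wt fathers. Dim signals were raised throughout on 2 arrays, with medians over all probes of -3.63 in W1 and -3.04 in H3 against -4.35 to -4.08 elsewhere, and H3 alone was high by at least 1 at 1309 tested probes. H4 stood apart in another way, with a median local background of 133 units against 30 to 51 on the other arrays, and 4066 tested probes not well above background against 170 to 3777. The marker genes of embryonic red cells, heart, somites and presomitic mesoderm, and neural tissue that were checked, 18 in all, were each well above background on all 8 arrays. Of the trophoblast and decidua markers, Tpbpa was well above background on no array, and the summed level of the list ran from 3.82 to 5.37 with Eed wt/wt fathers and from 3.76 to 5.25 with Eed hypo/wt fathers. Within that sum, Prl8a2 measured 1.56 to 2.92 with Eed wt/wt fathers and -2.61 to 0.72 with Eed hypo/wt fathers. Its father groups did not overlap, as at 3.23% of all tested probes, while those of Prl3d1 and Gcm1 did. The cause was not tested. In whole embryos, fewer cells of a type and less RNA per cell cannot be told apart.

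**Figure D1:**
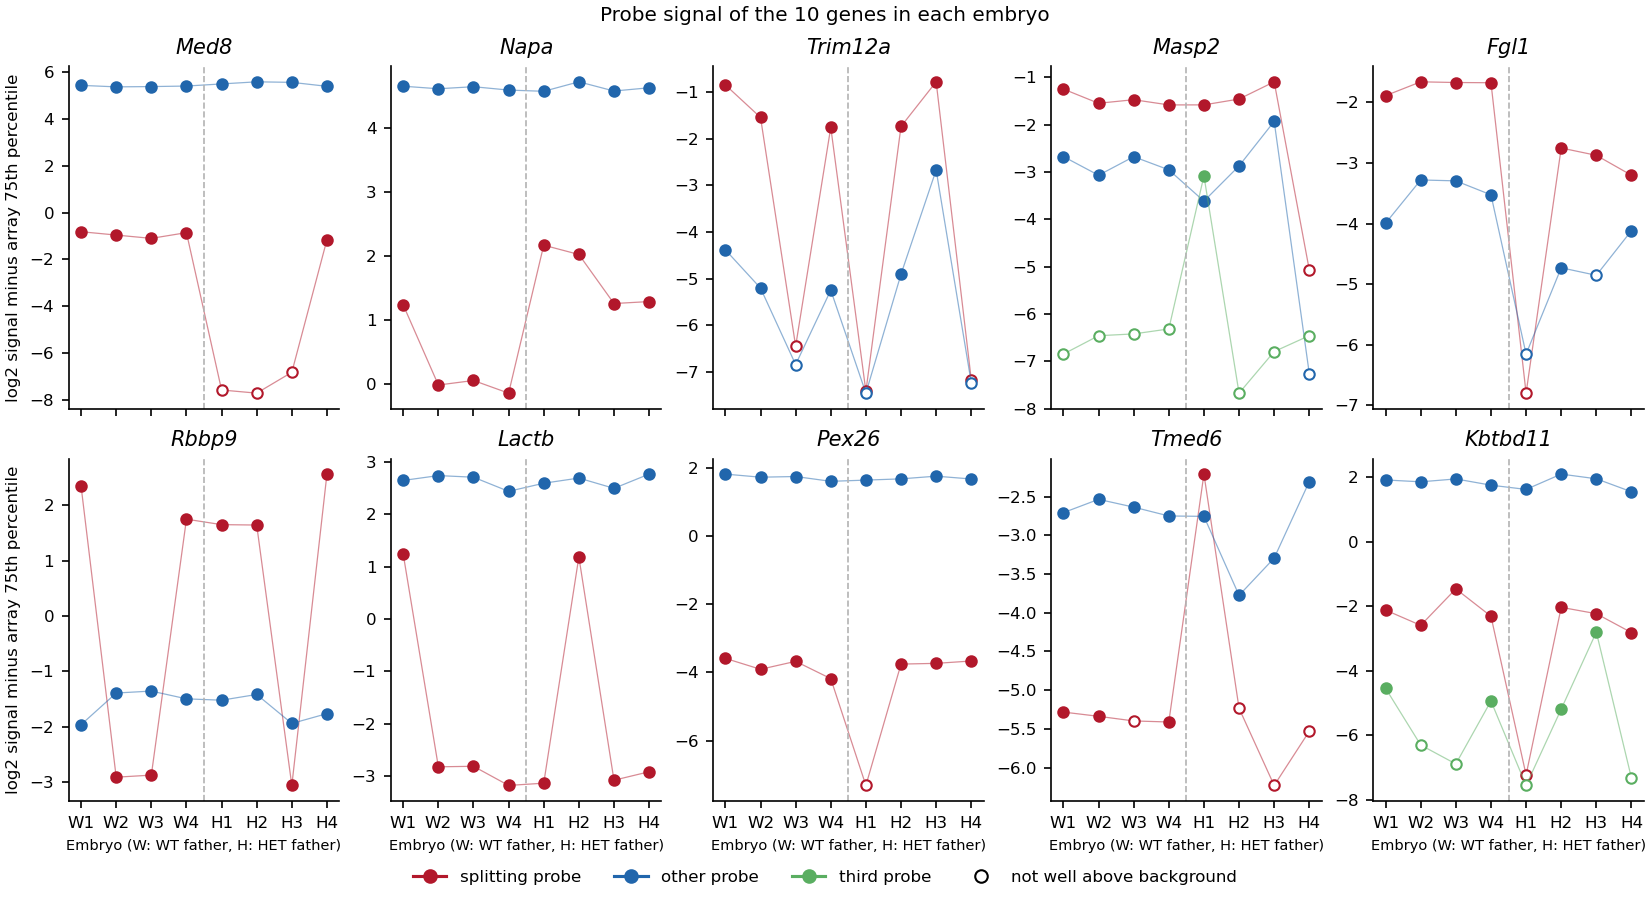
Signal of each tested probe of the 10 genes, and of a further Masp2 probe that was not tested, in each embryo (vertical axis, log2 signal minus the array's 75th percentile). Red points are the splitting probe, blue and green points the other probes, open points were not well above background, and the dashed line separates the father groups. The other probe of Med8 stays between 5.35 and 5.57 while the splitting probe falls below background in 3 embryos.

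The largest gap is the widest step between neighbours when the 8 values of a probe are put in order. Where a signal was not well above background it was first raised to the lowest well-measured signal of its array, and the gap is then a lower bound. The 10 splitting probes had gaps from 1.05 to 4.51 with a median of 2.86, and 7 of these are bounds. Of the 10, 8 had a gap of at least 2, 5 of at least 3 and 2 of at least 4, against 0.97%, 0.181% and 0.0725% of all tested probes, values that chose the genes and test nothing. The 11 other tested probes of the same genes had a median gap of 0.24, close to the 0.23 of all tested probes. Gaps of at least 0.5 were found at 22.4% of all tested probes and in 5 genes at a probe other than the splitting one. Gaps of at least 1 were found at 8.71% of all tested probes and at 3 of the 11 others, those of Trim12a, Masp2 and Kbtbd11. Without H3 the share of all tested probes was 5.59% (1849 of 33093). Among the 3 other probes with a gap of at least 1, only that of Masp2 divided the embryos in the same way as the splitting probe. At a smaller gap, of at least 0.507, the other Fgl1 probe also set H1 below the rest, as its splitting probe did. Across the array, 4027 named genes had at least 2 tested probes, and 340 of them had a probe with a gap of at least 1. In 40 of those 340 genes (11.8%) another probe also had such a gap, and in 23 (6.76%) it fell between the same embryos. How much rests on single embryos differed: without H1 the gap stayed at 1 or more at 6 of the 10 splitting probes, while without any other embryo it did so at 9 or 10.

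**Figure D2:**
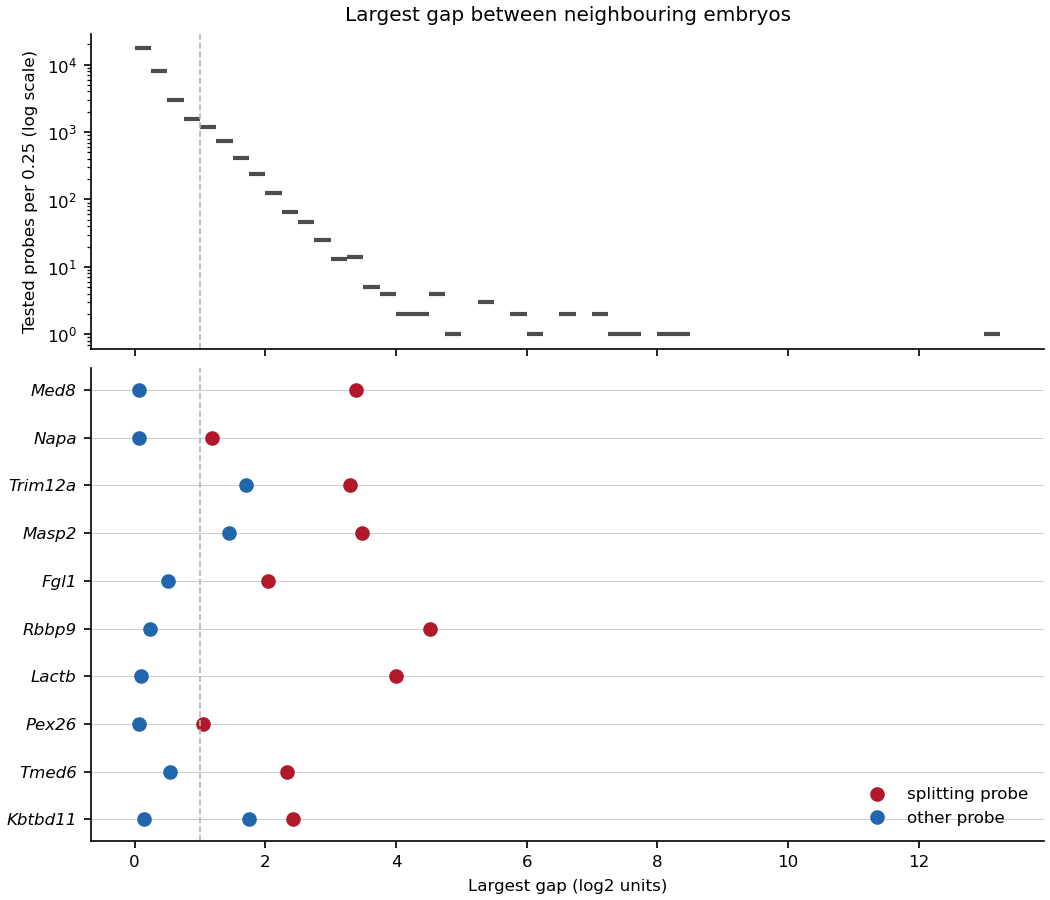
Largest gap between neighbouring embryos (horizontal axis, log2 units). The upper panel counts all 33093 tested probes on a log scale, a bar for each filled bin, and the lower panel shows the tested probes of the 10 genes, red for the splitting probe and blue for the others, with a dashed line at 1. All 10 red points lie above 1, and 3 of the 11 blue points do.

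The splitting probe of Med8 was bright in 5 embryos and at background in 3. It measured -0.82, -0.96, -1.10 and -0.86 in W1 to W4 and -1.16 in H4, but -7.56, -7.69 and -6.81 in H1, H2 and H3, where it was not well above background. The step from H4 to the nearest of the 3 dim embryos was at least 10.5-fold. The other Med8 probe read the same transcript with signals of 5.42, 5.35, 5.37 and 5.39 in W1 to W4 and 5.48, 5.57, 5.54 and 5.38 in H1 to H4. Its 8 values thus spanned 0.22, and the 3 embryos that were dark at the splitting probe were the 3 brightest here. The difference between the father groups at the other probe was 0.11 (95% interval -0.04 to 0.27).

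The splitting probe of Rbbp9 had the widest gap of the 10 genes. Its signal was 2.34, -2.91, -2.87 and 1.75 in W1 to W4, and 1.65, 1.64, -3.06 and 2.56 in H1 to H4. All 8 signals were well above background, so W2, W3 and H3 were measured 22.8-fold or more below the others. The values fell into 3 sets, with W1 and H4 highest and W4, H1 and H2 between, and each father group held embryos of every set. The other Rbbp9 probe gave -1.96, -1.39, -1.35 and -1.49 in W1 to W4 and -1.52, -1.42, -1.94 and -1.76 in H1 to H4. At that probe W2 and W3 were among the 3 brightest embryos, whereas they were among the 3 dimmest at the splitting probe. H3 was among the 3 dimmest embryos at both probes.

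In the membrane traffic genes, Napa showed graded levels. Its splitting probe measured 1.23, -0.02, 0.05 and -0.14 in W1 to W4 and 2.16, 2.02, 1.25 and 1.28 in H1 to H4, well above background in every embryo. The 3 low embryos are those that share the first part of their code, and W1 lay 1.18, or 2.26-fold, above the nearest of them and next to H3 and H4. The father groups therefore did not overlap, but W1 was 0.02 below the nearest embryo of an Eed hypo/wt father. The other Napa probe ranged from 4.57 to 4.71, with group means of 4.62 ± 0.03 (SD, n = 4) and 4.62 ± 0.07 (SD, n = 4).

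For Tmed6, the splitting probe was near background in every embryo but H1. It measured -5.28, -5.34, -5.40 and -5.41 in W1 to W4, then -2.21, -5.23, -6.23 and -5.53 in H1 to H4, and was well above background in W1, W2, W4 and H1 only. The spots printed around it moved as well: the median of the 21 nearest spots lay 1.90 above their usual level on the array of H1, and between -0.20 and 0.72 on the other 7. The other Tmed6 probe, printed elsewhere, measured -2.76 in H1, against -2.71, -2.54, -2.64 and -2.75 in W1 to W4. Its lowest values were -3.78 in H2 and -3.29 in H3. On the array of H1 the median of the spots around the splitting probe was thus raised together with its own signal. The part of this in the Tmed6 value was not tested.

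Both secreted proteins had other probes that moved with the splitting probe. The Masp2 splitting probe measured -1.25, -1.55, -1.47 and -1.58 in W1 to W4 and -1.58, -1.46, -1.10 and -5.07 in H1 to H4, with H4 not well above background and at least 11.1-fold below the next embryo. The other tested Masp2 probe gave -2.68, -3.07, -2.68 and -2.96, then -3.62, -2.87, -1.93 and -7.26, with H4 again alone below background. Its gap was at least 1.44, or 2.71-fold. H4 is the array with the highest local background, whose part in these values was not tested. A further Masp2 probe, given for another RefSeq transcript, was well above background in H1 alone, at -3.08, and was not well above background elsewhere, at -7.67 to -6.32. The embryo that lost the signal of the 2 tested probes therefore gained none at this probe, and the embryo that had signal there kept it at the other probes.

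Fgl1 was the only gene whose probes both separated the father groups. The splitting probe measured -1.89, -1.66, -1.67 and -1.68 in W1 to W4 and -6.80, -2.75, -2.87 and -3.20 in H1 to H4, where H1 was not well above background and at least 4.10-fold below H4. The other probe measured -3.99, -3.28, -3.30 and -3.53, then -6.15, -4.73, -4.85 and -4.12, with H1 and H3 not well above background. H1 was the lowest embryo at each probe, and every embryo of an Eed hypo/wt father lay below every embryo of an Eed wt/wt father. At the other probe the nearest embryos of the groups, W1 and H4, were 0.12 apart. Fgl1 is made by hepatocytes in the adult, and 8 of the 9 markers checked for yolk sac endoderm and other liver-like secretory cells were well above background on all 8 arrays. Alb was well above background on 1 array. The summed level of these 9 markers ran from 9.001 to 9.51 with Eed wt/wt fathers and from 9.30 to 9.37 with Eed hypo/wt fathers, and their part in the Fgl1 difference was not tested.

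Among the organelle genes, the splitting probe of Lactb was high in W1 and H2. It measured 1.24, -2.83, -2.81 and -3.18 in W1 to W4 and -3.14, 1.19, -3.08 and -2.92 in H1 to H4, all well above background. The gap was 16.0-fold, with 1 high embryo in each father group, and both high embryos were female. The other Lactb probe gave 2.65, 2.74, 2.71 and 2.44, then 2.60, 2.70, 2.50 and 2.77. There, W1 and H2 lay within the range of the other embryos. Pex26 was dim at its splitting probe in every embryo, with -3.59, -3.91, -3.68 and -4.18 in W1 to W4 and -7.32, -3.76, -3.73 and -3.67 in H1 to H4. H1 was below background there and at least 2.08-fold below W4. At the other Pex26 probe all 8 embryos lay between 1.61 and 1.82, and H1 was not apart.

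The ubiquitin-related genes gave on and off patterns of different kinds. For Trim12a, the splitting probe measured -0.85, -1.55, -6.44 and -1.76 in W1 to W4 and -7.41, -1.74, -0.78 and -7.16 in H1 to H4, and was not well above background in W3, H1 and H4. The step was at least 9.85-fold. The other Trim12a probe, with -4.38, -5.20, -6.84 and -5.24 and then -7.45, -4.90, -2.67 and -7.23, was not well above background in the same 3 embryos. Its own largest gap, 1.71, set H3 above the rest. Trim12a lies in a cluster of close relatives, and how far these probes also read the RNA of those relatives was not tested.

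Kbtbd11 had 3 tested probes. The splitting probe measured -2.12, -2.59, -1.46 and -2.31 in W1 to W4 and -7.23, -2.03, -2.23 and -2.82 in H1 to H4, with H1 not well above background and at least 5.35-fold lower. A probe that was well above background in every embryo gave 1.92, 1.86, 1.95 and 1.76, then 1.62, 2.10, 1.95 and 1.55, where H4 and not H1 was lowest. The last probe was well above background in W1, W4, H2 and H3 only, at -4.55, -4.94, -5.19 and -2.80, and its gap of 1.74 set H3 above the rest. H3 has raised signal at dim probes over the whole array. Kbtbd11, Fgl1 and Tmed6 all lie on chromosome 8, and H1 stood alone at the splitting probe of each, but it was also alone by at least 1 at many tested probes across the array, low at 96 and high at 90.

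The spots around the other 9 splitting probes were read in the same way, in the smaller set of embryos at each probe. In 15 of the 18 such spots the surrounding spots deviated by -0.14 to 0.11. The exceptions were 1.04 at Med8 and 0.72 at Rbbp9 in H3, and 0.32 at Lactb in W1, the 2 arrays whose dim signals were raised. In H3 the surrounding spots were thus above their usual level where the Med8 and Rbbp9 signals were low. Local background at the splitting spots lay between 14.0 units below and 5.0 units above the median of its array.

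**Figure D3:**
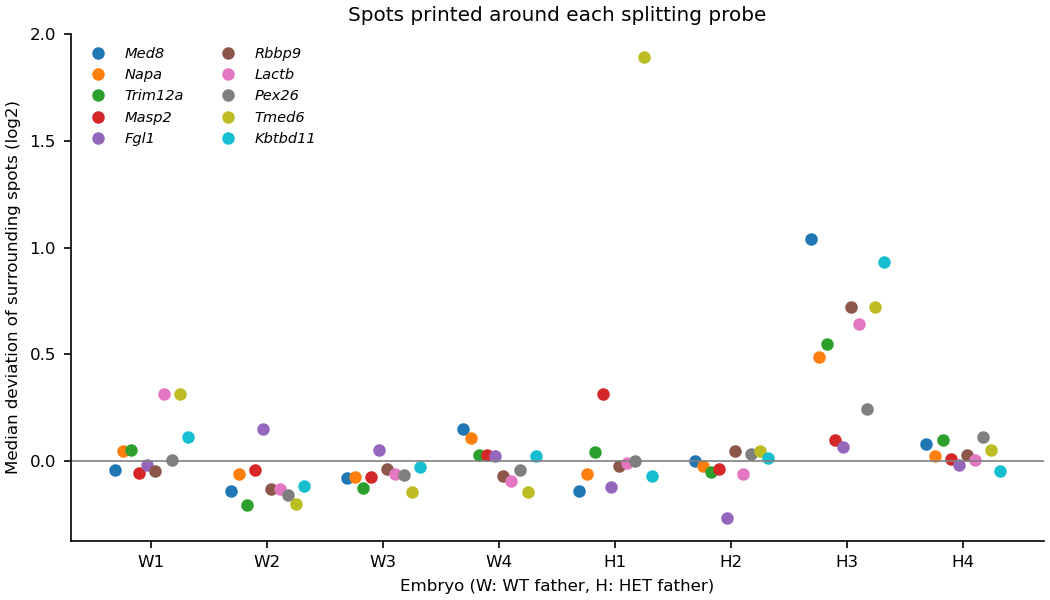
Median deviation of the non-control spots within 2 rows and 2 columns of each splitting probe from their own median over the 8 arrays (vertical axis, log2 units), by embryo. Each colour is 1 gene. The spots around the Tmed6 spot in H1 have a median deviation of 1.90, and the surroundings in H3 are raised at most genes.

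The father comparison was tested at the 11 other probes. Over all 33093 tested probes limma called 0 at an adjusted p under 0.01 and at least 2-fold (0.0%), and 1455 had an unadjusted p under 0.05 (4.4%). Of the 11, 2 were higher and 9 lower in the offspring of Eed hypo/wt males, against a median difference of 0.003 over all tested probes. These counts include differences as small as -0.0006 at Napa, and some changed sign when an embryo was left out. Among the 11, 0 were called and 1 had an unadjusted p under 0.05. That probe was the other Fgl1 probe, with means of -3.52 ± 0.33 (SD, n = 4) and -4.96 ± 0.86 (SD, n = 4). Its difference was -1.44 with a standard error of 0.42 (95% interval -2.41 to -0.47, limma, unadjusted p = 0.00947, adjusted p = 1.00), which did not pass the threshold. The difference stayed between -1.72 and -1.04 when any embryo was left out. H1 was lowest at both Fgl1 probes, so this test is not independent of the choice of the gene. The father groups did not overlap at 1 of the 11 probes, again that of Fgl1, and at 3.23% of all tested probes.

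For 6 of the other probes the interval of the father difference was narrow. It lay within -0.51 to 0.29 for Rbbp9, -0.38 to 0.25 for the Kbtbd11 probe seen in every embryo, -0.22 to 0.23 for Lactb, -0.20 to 0.13 for Pex26, -0.15 to 0.15 for Napa and -0.04 to 0.27 for Med8. The intervals were wide where signals dropped to background. They ran from -3.53 to 1.38 for Masp2, -2.74 to 2.44 for Trim12a and -2.65 to 2.55 for the Kbtbd11 probe seen in 4 embryos, so that these data leave changes of several fold undetectable. The Masp2 difference of -1.08 became 0.04 without H4.

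**Figure D4:**
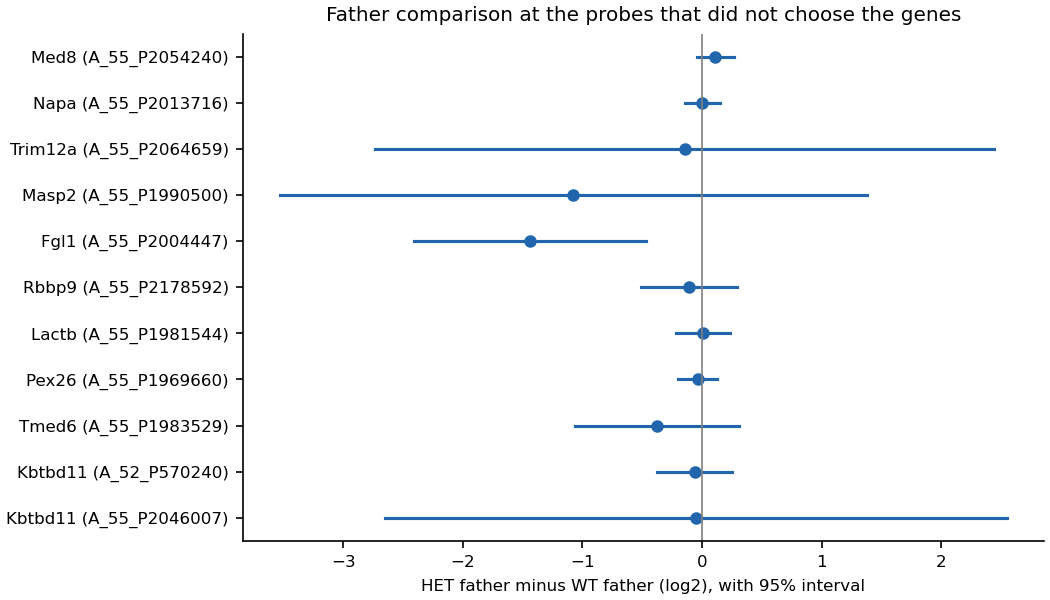
Mean of the embryos with an Eed hypo/wt father minus that of the embryos with an Eed wt/wt father (horizontal axis, log2, with its 95% interval from limma) at the 11 tested probes other than the splitting probes. The interval of Fgl1, from -2.41 to -0.47, is the only one that leaves out 0, and it belongs to an adjusted p of 1.00.

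Sex was tested at the same 11 probes. Over all tested probes limma called 11 (0.0332%), and 3.28% had an unadjusted p under 0.05. Of the 11 probes 0 were called and 0 had an unadjusted p under 0.05, and the smallest unadjusted p was 0.168, at the other Lactb probe (limma, adjusted p = 1.00). The Lactb splitting probe, given without a test, had a mean of -0.83 ± 2.36 (SD, n = 4) for the female embryos and -3.06 ± 0.16 (SD, n = 4) for the male ones. The sexes overlapped there, because W3 and H4, both female, were as low as the males. The sexes did not overlap at 1 of the 11 probes, the other probe of Napa, where females lay between 4.62 and 4.71 and males between 4.57 and 4.61, against 2.57% of all tested probes. The effect of the father was also compared between the sexes, and the smallest adjusted p of that interaction over the 11 probes was 0.996 in limma.

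Partners and relatives of each gene were read next, by the brightest tested probe, in 10 lists. In the father comparison 0 genes of any list were called. Among the other Mediator genes, 30 tested, the median difference was 0.00 and 1 gene, the kinase module subunit Med13 (-0.32), had an unadjusted p under 0.05. Among 27 other SNARE genes the median was 0.04, with Stx2 (0.17) and Snap25 (0.26) at an unadjusted p under 0.05, and among 16 other peroxisome genes it was 0.03. The medians of the other lists lay between -0.16 for 5 Trim genes and 0.10 for 7 genes of the fibrinogen family, against 0.00 over all tested probes, and none of their genes had an unadjusted p under 0.05. The fibrinogen chains, which like Fgl1 are made by hepatocytes in the adult, differed by -0.06 (Fga), -0.04 (Fgb) and 0.00 (Fgg). Whether they and Fgl1 are made in the same cells of these embryos was not tested. By sex, limma called 0 of the other list genes and the list medians lay between -0.03 and 0.21. The SNARE genes Stx16 (0.34) and Vamp7 (-0.41, lower in males) alone had an unadjusted p under 0.05. List genes with gaps of at least 1 included the lectins Mbl1 (1.49) and Mbl2 (1.03), which carry Masp2 in plasma, and the angiopoietin-like gene Angptl2 (2.03).

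Position was read by asking whether genes beside a member divided the embryos as it did. The 3 genes with tested probes on either side of each member gave 91 probes of 60 genes, and 4 of these (4.40%) had a gap of at least 1, Bicra, Olfr632, Tuba8 and BB014433, each with H3 alone high. None had such a gap between the same embryos as the member beside it. At smaller gaps 9 of the 91 probes divided the embryos where the member did, against 2.57 at the share of all tested probes that had these divisions. Of the 9, 7 went in the direction of the member and 2 in the opposite direction, Sec23b beside Rbbp9 and Nfat5 beside Tmed6. Next to Trim12a on chromosome 7, the related gene Trim34a measured -3.10, -3.45, -4.38 and -3.26 in W1 to W4 and -4.43, -3.04, -3.08 and -4.72 in H1 to H4, so that W3, H1 and H4, the embryos without Trim12a signal, were lowest by 0.92. Beside Lactb on chromosome 9, both probes of Aph1b, a subunit of gamma-secretase, were highest in W1 and H2, by 0.57 and 0.43. Near Rbbp9 on chromosome 2, Dtd1 was lowest in W2, W3 and H3, by 0.37.

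Probes farther away on the same chromosome were then listed where they had a gap of at least 1 between the same embryos, a search made after the values of the members had been seen. H4 stood alone in this way at 48 probes besides those of Masp2. Of the 25 with a known chromosome, 8 (32.0%) lay on chromosome 4 with Masp2, which holds 6.82% of the named tested probes. Of these 8, 6 were separated from Masp2 by at most 57 of the 992 tested genes of the chromosome. Cort, Zfp534, Rex2 and Wrap73 were low in H4 with Masp2, though the other tested Zfp534 probe had a gap of 0.11. Cort, which encodes the neuropeptide cortistatin and lies 4 tested genes away, measured between -0.35 and 0.27 in the other 7 embryos and -1.62 in H4. Wrap73, a WD repeat protein, measured between 1.21 and 1.67 in the other embryos and -0.77 in H4. The other pair, Fbxo44 and Zfp982, was high in H4, at -0.58 and -0.11, where the next embryo had -1.68 and -1.55, and the other Fbxo44 probe had a gap of 0.81. The embryo that lost Masp2 signal thus differed in both directions at other probes of that stretch of chromosome 4. The remaining probes, of Frmd3 and Npr2, lay 590 and 719 tested genes away, and 2 further Frmd3 probes had gaps of 0.72 and 0.75. These values rest on H4 alone.

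**Figure D5:**
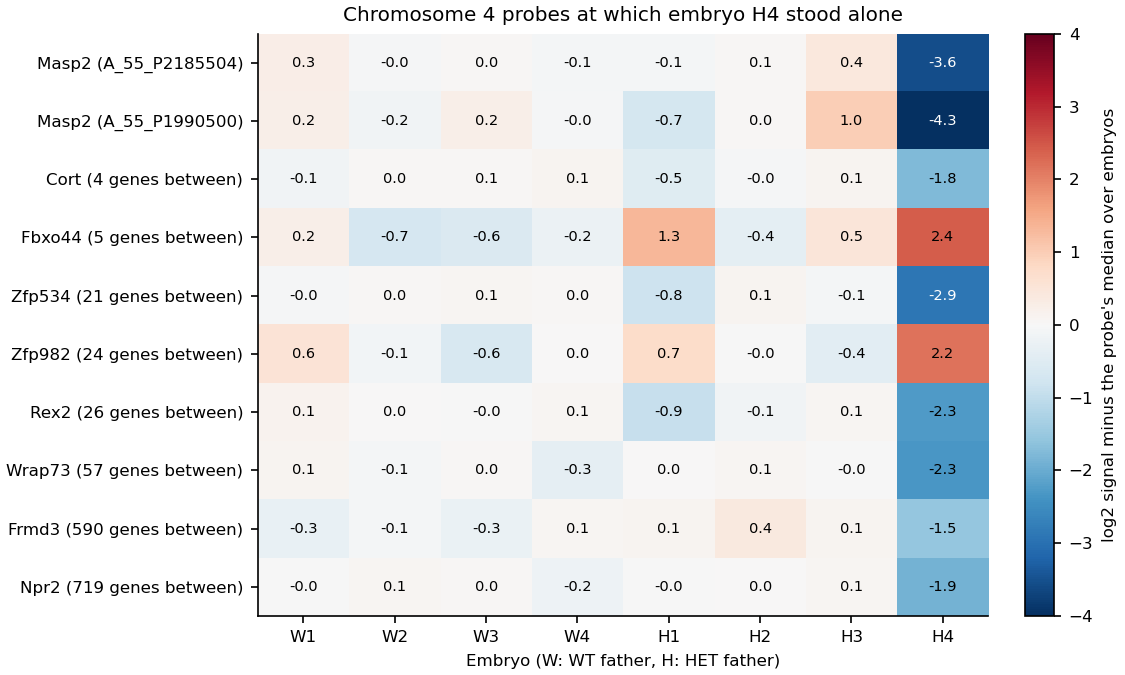
Signal in each embryo (columns) minus the median of the probe over the 8 embryos (colour and printed value, log2 units), for the 2 tested Masp2 probes and the 8 other chromosome 4 probes at which H4 stood alone by at least 1. Rows follow the number of tested genes between each gene and Masp2. H4 is low at the Masp2 probes and 6 others and high at Fbxo44 and Zfp982.

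The search was repeated for the other divisions. H1 alone, the division of Fgl1, Pex26, Tmed6 and Kbtbd11, was found at 185 other probes, 76 of them with a known chromosome. Of these 76, 4 (5.26%) lay on chromosome 8 with Fgl1, Tmed6 and Kbtbd11, other members included, against 5.08% of the named tested probes. On chromosome 6 with Pex26 lay 2 (2.63%), against 4.96%. For H1 the share on the member's chromosome was thus close to or below that of all named tested probes. The division of Med8 was shared by 6 probes, 3 of them with a known chromosome. Of these 3, 2 lay on chromosome 4 with Med8, against 6.82% of the named tested probes. At the Hdac1 probe, a histone deacetylase gene 128 tested genes away, W1 to W4 measured 3.79, 3.84, 3.98 and 3.85 and H1 to H4 measured 2.52, 2.60, 2.62 and 3.85. The other 2 Hdac1 probes had gaps of 0.14 and 0.41. At Atg4c, an autophagy protease gene, H1, H2 and H3 measured -3.43, -2.44 and -3.35 and the other 5 embryos between -1.12 and -0.996, while the other Atg4c probe had a gap of 0.43. The division of Lactb was shared by 4 probes, 3 of them with a known chromosome. Of these 3, 2 lay on chromosome 9 with Lactb, Pclaf and Sox14, against 5.48% of the named tested probes. Sox14 was well above background on 4 arrays only. At Pclaf, a PCNA-binding protein 13 tested genes away, W1 and H2 measured 0.12 and 0.32 and the others between -2.40 and -2.13, while the other Pclaf probe had a gap of 0.20. For Napa 5 probes shared the division and 0 of the 3 with a known chromosome lay on chromosome 7, and for Trim12a and Rbbp9 there were 0 such probes.

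The probes whose pattern was most like each splitting probe were taken by Pearson correlation over the 8 embryos, among 2882 probes with a gap of at least 1, as a description. Hdac1 (0.99) and Zfp930 (0.99) were nearest to Med8, Mcam (1.00) to Masp2, and Plcxd1 (0.99) and Pclaf (0.99) to Lactb. Prim2 (0.93) was nearest to Napa, and like it was low in W2, W3 and W4, at -0.73, -0.67 and -0.75, against 1.68 in W1 and 1.77 to 1.82 with Eed hypo/wt fathers. Tedc1 (0.95) was nearest to Fgl1, Wdr81 (0.97) to Pex26, Col9a3 (1.00) to Tmed6 and a noncoding interval (0.96) to Kbtbd11. Likeness was lower for Rbbp9, whose nearest probes were BC086781 (0.82) and Prm1 (0.79), and for Trim12a, with Siah3 (0.87) and Clec2h (0.85). The Col9a3 spot on the array of H1 had surrounding spots at 0.03, unlike the patch around Tmed6. These correlations follow from the choice of probes that jump, and any 2 probes that set the same single embryo apart correlate closely.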

How the data were processed

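RNA of 8 embryos was labelled with 1 dye and hybridised to 1 Agilent array each. The authors scanned the arrays with Agilent Feature Extraction (version 11.0.1.1 in the submitters' processing notes), and the deposited intensity values, background-subtracted and spatially detrended, are not scaled between arrays. A deposited table of the series holds the same intensity values, rounded, with 0 sample columns left unused. A percentile shift and the threshold used here are given in the study's methods, without a test.

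The log2 intensity was shifted by each array's 75th percentile, without control spots or spots marked as outliers, and repeated spots were averaged per probe. Probes were tested when well above background on at least 4 of 8 arrays and not in the lowest 20% by mean. limma 3.58.1 (R 4.3.3, with version 1.17.8 of data.table) compared fathers, and sexes with father in the fit, with Benjamini-Hochberg adjustment over all tested probes. It called an adjusted p under 0.01 and at least 2-fold. In 5 runs of simulated data on 33093 probes, residuals of the father comparison were shuffled within each father group. The group difference of an unchanged probe thus stayed at 0, so a count of 0 false calls was fixed in advance and checks nothing. A median of 68.6% of probes changed by 2 on the log2 scale was recovered, also without noise in the group difference, so the share in real data was not tested. Tables and figures used Python 3.11.15, numpy 2.4.6, pandas 2.3.3 and matplotlib 3.10.9.

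Of 28685 RefSeq probes, 27235 matched a symbol of assembly GRCm38.p6, used for names, chromosomes and gene order; no coordinates are given because the array's intervals are on another build. Probe sequences were not analysed here. The members, gene lists and marker lists were chosen with earlier results of these data known. The named genes were all members, list genes called in either comparison, list and neighbouring genes with a gap of at least 1, and the 2 probes most like each splitting probe; list genes at an unadjusted p under 0.05, neighbours at smaller gaps and genes on the same chromosome were added after their values were seen. Alternatives were the deposited table, normexp (offset 50) followed by quantile normalization, quantile normalization alone, alignment on the median, other filters, blocks and thresholds, and each embryo left out. Precision is limited by the number of arrays. Single values of some genes in the lists of partners and relatives are not reported here.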

Additional observations from a re-analysis of the deposited data

Results flagged for a closer look

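An embryo far from the other 3 of its father group was looked for at the 21 tested probes, in 42 groups of 4. Signals not well above background were first raised, as for the gaps. Dixon's ratio, the distance of an extreme embryo from its neighbour divided by the whole range of the 4, was above its 95% limit in 9 of them. Of these, 7 were at splitting probes, which were chosen for such gaps and are a description. The other 2 came from the 22 groups of probes that did not choose their genes. At 1 in 20, chance would put about 1.1 of those 22 past the limit, a share that holds for signals that were not raised.

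In W1 the ratio was 0.857 at the Napa splitting probe and 0.917 at that of Lactb, where it was high, and 0.934 at that of Fgl1, where it was low by 0.21. In the Eed hypo/wt group it was 0.949 for H2, high at the Lactb splitting probe, 0.836 for H3, low at that of Rbbp9, 0.942 for H1, low at that of Pex26, and 0.877 for H4, low at that of Masp2. H3 was high at 2 probes that did not choose their genes, with 0.870 at the other Trim12a probe and 0.927 at the Kbtbd11 probe seen in 4 embryos. At both, H1 and H4 were not well above background, and raising their signals narrowed the range. With the signals as measured, both ratios lie below the limit. H3 was also alone high at 1309 probes of the array, and the part of this in either gene was not tested. The Masp2 probe left out of the tests was well above background in H1, at -3.08, and in no other embryo.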

How the results depend on the processing

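The alternatives were planned, apart from the reading of the surrounding spots, which was added after the data were seen. The 10 splitting probes with a gap of at least 1 became 8 under normexp or a shift by the median, 9 under quantile normalization, with a range of 6 to 10 as embryos were dropped in turn (6 without H1). The gap of Pex26 fell to 0.23 under normexp and that of Napa to 0.72 with medians aligned. The 3 genes with a gap of at least 1 at another probe became 0 under normexp, 0 for a gap of at least 2, 5 for at least 0.5, with a range of 2 to 3 as embryos were dropped.

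The father count of 0 in limma was 0 to 1 as embryos were dropped, 1 without W1 (Prim2) and 1 without H4, and 0 under the other alternatives. The probe called without H4 is the Med8 splitting probe, whose values chose the gene, so that call is no test of Med8. Of the probes of the 10 genes other than the splitting ones, 0 were called by father or by sex under any alternative. The 11 probes called by sex became 5 without a filter, 0 with the filter on all 8 arrays, and 4 to 9 when embryos were dropped in turn. Replicate numbers did not pair the embryos: same-numbered embryos had correlations of -0.59 to -0.05, and 0 of 8 correlated best with their own number. With the replicate block 0 probes were called by father and 0 by sex.

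Father differences that changed sign were small or unsteady. With an embryo left out, that of the Napa probe (-0.00) lay between -0.033 and 0.017, Lactb (0.00) between -0.061 and 0.051, Trim12a (-0.15) between -1.11 and 0.48, Masp2 (-1.08) between -1.74 and 0.037, the Kbtbd11 probe seen in every embryo (-0.06) between -0.16 and 0.022 and the one seen in 4 embryos (-0.05) between -1.02 and 0.56. Lactb had -0.10 with medians aligned, which moves all probes by about -0.10, and -0.0060 under quantile normalization. Under normexp Trim12a had 0.13 and the Kbtbd11 probe seen in 4 embryos 0.093. The cause was not tested.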
